A study of Mus musculus with 29 samples.

Results

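Neuroendocrine (NE) tumors and adenocarcinomas (ADC) that arose in the prostate of transgenic mice were compared over 10768 genes. The 7 prostates were those labelled with a palpable tumor among the 29 of the series, and the label of tumor type split them into 3 NE (OPT-tm) and 4 ADC (T30). The OPT-tm prostates came from 18 wks old OPN-/-TRAMP males (B6.tgN (TRAMP)8247Ng Spp1<tm1Blh>/J, titled OPT18_1333, OPT18_1340 and OPT18_1335), which lack osteopontin, the matrix glycoprotein that Spp1 encodes. The T30 prostates came from 30 wks old TRAMP males (C57BL/6-tgN (TRAMP)8247Ng, titled T30_6771, T30_6775, T30_6769 and T30_6768). Every animal of both groups carried the TRAMP transgene, which puts a viral T antigen under the rat probasin promoter, an androgen-driven promoter of prostate epithelium. Tumor type, genotype, strain and age changed together, so they cannot be told apart in this comparison. RNA was taken from the prostate, with 1 array per mouse, and the study's methods describe no separation of tumor from remaining gland. The other 22 prostates had no palpable tumor: 13 of 18 wks old (OPT18) and 5 of 15 wks old (OPT15) OPN-/-TRAMP mice, and 4 of 18 wks old TRAMP mice (T18). They serve only to place the levels of named genes and to compare both genotypes in mice with no palpable tumor.

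NE tumors of the prostate have lost the secretory program of the gland, and with it the androgen receptor, and they take on traits of endocrine and nerve cells, such as dense core granules that store amines and peptides. Luminal prostate cells, from which most ADC are thought to arise, are by contrast exocrine: they load the endoplasmic reticulum with secreted proteins, handle zinc and citrate, and hold tight junctions. The comparison here was therefore read through metabolism, secretion, surface proteins, transcription factors and signaling.

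Levels are quantile-normalized log2 signals, on which a difference of 1 is a 2-fold change, and fold changes run OPT-tm over T30. A gene was called when limma's Benjamini-Hochberg adjusted p was under 0.05 and the fold change at least 2. That rule called 24.1% of the genes tested, 1242 higher (11.5%) and 1351 lower (12.5%) in OPT-tm, with a median log2 fold change over all genes of -0.03. The shares of probes detected were alike, at 41.9% to 49.4% in OPT-tm and 39.8% to 49.2% in T30, but they went with the array chip. On chips 1 and 2 they were 48.1% and 49.4% in OPT-tm and 49.2% on both T30 arrays. On chips 3 and 4 they were 41.9% in OPT-tm, and 41.4% and 39.8% in T30. Chga was undetected at 9.01 on an OPT18 array of chip 3, yet detected at 8.49 on an OPT18 array of chip 1. Detection, and the floor built on it below, thus depended in part on the chip. Arrays correlated at r of at least 0.953 within OPT-tm, at least 0.918 within T30 and at most 0.815 between them. Over all genes, 24.3% lay higher in every OPT-tm prostate than in any T30 prostate, and 24.5% lay lower. Where a gene was detected on no array of a group, its change is given as at least N-fold, from the mean of the brighter group over a floor set in each array of the dimmer one by its lowest detected signal, or by the gene's own signal where that was higher.

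The label of tumor type was set against marker genes. Of 12 tested NE differentiation genes 10 were higher and none lower in OPT-tm, with a mean level over the list of 11.86 to 12.30 in OPT-tm and 8.08 to 8.29 in T30. The keratins of luminal cells, Krt8 and Krt18, fell by 3.56 and 2.88, and they were detected on every OPT-tm array. Markers of other cells of the gland moved too. Smooth muscle genes were lower for 9 of 11 (mean level 9.51 to 9.64 in OPT-tm, 12.21 to 12.63 in T30), fibroblast and matrix genes for 9 of 13 (10.57 to 11.36 in OPT-tm, 11.95 to 13.34 in T30), basal epithelial genes for 7 of 9 (8.99 to 9.21 in OPT-tm, 10.75 to 11.70 in T30) and macrophage and antigen presentation genes for 6 of 12 (10.39 to 11.20 in OPT-tm, 11.60 to 12.12 in T30). Basal Trp63 was detected on no OPT-tm array, smooth muscle Myh11 on 2 of 3 and matrix Lum on 1 of 3. None of 10 endothelial genes was called by limma, and 3 had an unadjusted p under 0.05, of which 2 were lower (mean level 9.70 to 10.38 in OPT-tm, 10.01 to 11.46 in T30). In RNA from tissue of mixed cells, fewer cells of a type and less RNA per cell cannot be told apart, and this holds for every gene below. The 8 seminal vesicle genes were lower in OPT-tm, but the T30 prostate of mouse T30_6771 lacked them as well (Svs2 at 8.48, against 15.88 to 16.01 in the other T30 prostates). The count of 8 was 1 without mouse OPT18_1333, 2 without OPT18_1340, OPT18_1335, T30_6769 or T30_6768, 5 without T30_6775, 3 with the chip in the fit and 4 with no detection filter. Prostate luminal genes were lower for 5 of 11 and higher for none (mean level 10.54 to 10.82 in OPT-tm, 11.27 to 12.91 in T30). Of the 11, 4 were detected on no OPT-tm array. The luminal secretory gene Msmb was unequal among T30 and was not absent from OPT-tm. It stood at 12.74, 15.65 and 14.24 in OPT-tm, against 8.14 in mouse T30_6775 and 15.50 to 15.97 in the other T30 prostates (0.34 ± 1.83, not called).

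**Figure D1:**
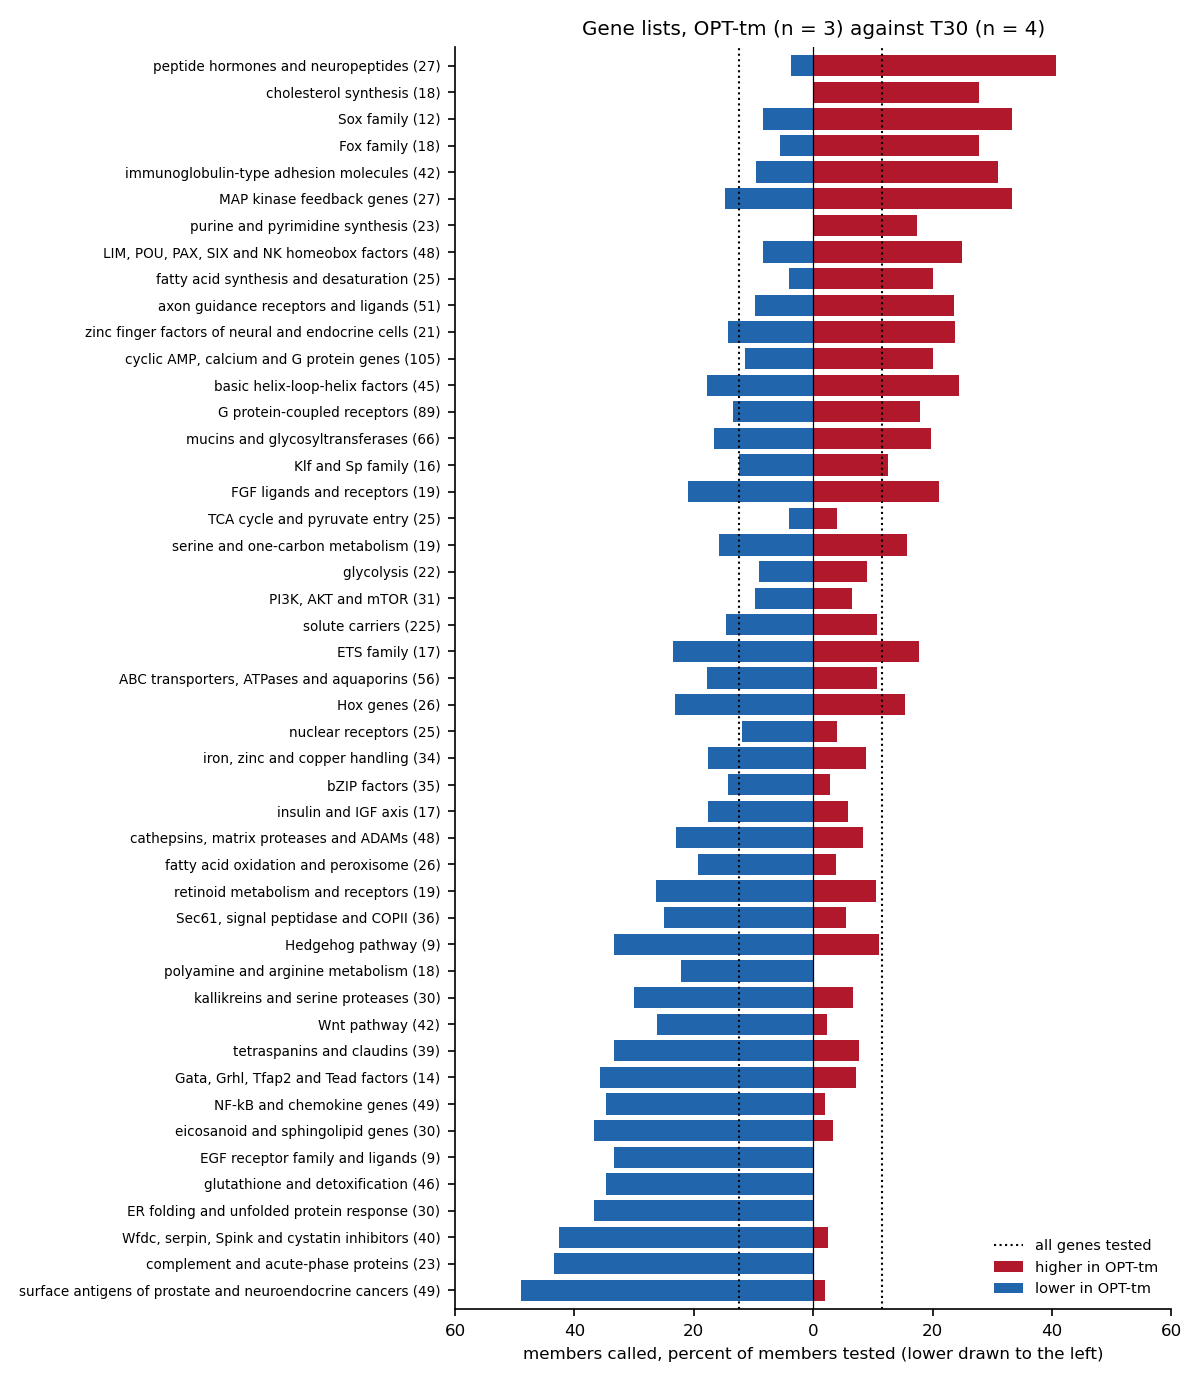
Share of the tested members of 47 gene lists that were called higher (red, to the right) or lower (blue, to the left) in OPT-tm (n = 3) than in T30 (n = 4), in percent, with the number tested in brackets. Dotted lines give the shares over all genes, 11.5% higher and 12.5% lower. Peptide hormones lead at the top with 11 of 27 higher, and surface antigens close the bottom with 24 of 49 lower.

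With genes of the synaptic, neuroendocrine (Insm1 among them), cell cycle, TGF-beta and seminal vesicle topics set aside, rises and falls were ranked. Each had to show no overlap between groups and detection on every array of the brighter group. The 10 largest rises were Shd, Slc32a1, Amer2, Glra2, Gdap1, Celsr3, Rufy3, Vstm2l, Fam155a and Prox1. Of these, 9 were detected on no T30 array, and the tenth, Rufy3, was detected on 2 of 4 T30 arrays. Slc32a1, the transporter that loads GABA and glycine into vesicles, reached 13.20, 12.37 and 14.72 in OPT-tm, against 7.61, 7.72, 7.91 and 7.88 in T30, which is at least 25.5-fold higher (adjusted p = 4.4e-05). Glra2, a subunit of the glycine-gated chloride channel, stood at 12.49, 13.51 and 13.23 in OPT-tm and at 7.54, 7.66, 7.82 and 7.61 in T30 (at least 19.97-fold higher, adjusted p = 2.0e-06). A vesicular transporter and a receptor of glycine, picked for detection in all NE tumors, were thus detected on no ADC array. Shd, an SH2-domain adaptor, was at least 29.7-fold higher, Amer2, a membrane-bound partner of APC, at least 31.1-fold, and Celsr3, an atypical cadherin of planar polarity, at least 22.4-fold. The T18 prostates, at 7.95 to 8.46 for Amer2 and 7.80 to 8.03 for Celsr3, overlapped T30. The OPT18 prostates, labelled without a palpable tumor, were uneven: Amer2 ran from 8.13 to 12.35 and was detected on 8 of 13 arrays.

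The largest falls by the same rule belonged to secretory epithelium and smooth muscle. Spink8, a Kazal-type protease inhibitor, had 9.02, 9.78 and 8.36 in OPT-tm, against 13.06, 15.22, 14.95 and 14.04 in T30 (log2 fold change -5.27 ± 0.53 SE, adjusted p = 0.00012). Cwh43, known from yeast as a lipid remodeler of GPI anchors, fell by 5.36 (adjusted p = 0.0019) and Ces1d, a carboxylesterase, changed by -4.82 (adjusted p = 0.00057). In both, mouse T30_6771 was the lowest T30 prostate (10.71 for Cwh43, 11.94 for Ces1d). Osr2, a zinc finger factor of mesenchyme, was detected on no OPT-tm array and stood at 12.48 to 14.05 in T30, at least 22.9-fold lower. Tpm2 and Mylk, of the contractile apparatus, fell by 4.67 and 4.52 along with the smooth muscle list above. A second probe for Tpm2, at a mean level of 8.11, had a log2 fold change of 0.05.

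Transcription factors of neural and endocrine lineages were among the rises. Of 48 homeobox factors of the LIM, POU, PAX and NK classes and their relatives 12 were higher and 4 lower. Prox1, the homeobox factor of lymphatic, hepatic and endocrine cells, stood at 13.27, 13.62 and 13.01 in OPT-tm and at 7.999, 7.98, 7.84 and 8.08 in T30, at least 23.3-fold higher (adjusted p = 4.0e-07). Pax9, a factor of foregut endoderm and pharyngeal pouches, was at least 6.31-fold higher, at 11.06, 11.78 and 11.40 in OPT-tm against 7.65 to 7.91 in T30. No OPT-tm level of these genes came within 3 log2 units of a T30 level. Onecut2 and Nkx2-2, which act in pancreatic and neural progenitors, were at least 1.66-fold and 1.82-fold higher with the probes used. Their OPT-tm signals of 8.67 to 10.44 were near the floor of the scale. A second probe for Nkx2-2, at a mean level of 9.35, had a larger log2 fold change of 4.14. Zeb2, a repressor of E-cadherin, rose by 1.99 ± 0.42 (adjusted p = 0.0058). Of the 4 that fell, Meis2, Prrx1 and Msx1 are factors of mesenchyme, and their T30 levels peaked in mice T30_6775 and T30_6769 (14.16 and 13.80 for Meis2), as did Lum (13.68 and 12.91). The lowest log2 fold change of the list, -4.47, was that of another member, and Meis2, Prrx1 and Msx1 changed by -2.51, -1.95 and -1.78.

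Zinc finger factors of the Myt1 family, which repress non-neuronal genes in maturing neurons and endocrine cells, were called for all 3 members tested. Myt1 had 12.22, 11.75 and 12.92 in OPT-tm, against 7.63, 7.72, 7.90 and 8.12 in T30 (at least 11.6-fold, adjusted p = 8.5e-06). St18 was at least 5.07-fold higher. For Myt1l, at least 2.79-fold higher with the probe used, a second probe had a log2 fold change of -0.07. Bcl11b, a factor of T cells and of cortical neurons, rose by 2.52 ± 0.53 (adjusted p = 0.0053).

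In the Fox family 5 of 18 members were higher. Foxa2, a pioneer factor of endoderm, was even among the NE tumors, at 10.48, 10.27 and 10.47, and undetected in T30 at 7.56 to 7.83 (at least 3.14-fold, adjusted p = 4.3e-06). Foxn4, a factor of retinal and spinal interneurons, was at least 3.89-fold higher and Foxp1 rose by 1.60 ± 0.32 (adjusted p = 0.0041). Foxa1, the pioneer partner of the androgen receptor, was high in the NE tumors, at 14.58, 14.62 and 14.59, and in T30 it stood at 14.17, 13.26 and 13.86 in mice T30_6771, T30_6769 and T30_6768 but at 10.14 in mouse T30_6775. The groups did not overlap, yet the difference of 1.74 ± 0.85 did not pass (adjusted p = 0.13). Foxa1 was thus not lower in the NE prostates, in which the luminal keratins fell.

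Sox factors went in opposite directions. Sox5 rose by 2.62 ± 0.33 (adjusted p = 0.00041), Sox21 by 2.63 ± 0.81 (adjusted p = 0.029, 13.59 in mouse OPT18_1335 and 9.60 and 10.38 in the other NE tumors), and Sox1 was at least 1.40-fold higher. Sox9, a factor of prostate progenitors and ducts, fell by 2.003 ± 0.23 (adjusted p = 0.00024).

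Factors of glandular and stratified epithelium fell. Of 14 Gata, Grhl, Tfap2 and Tead factors 5 were lower and 1 higher. Gata3, a luminal factor, had 12.31, 9.76 and 11.15 in OPT-tm, against 13.96, 14.09, 13.76 and 13.69 in T30 (-2.80 ± 0.50, adjusted p = 0.0023). Its levels were wider apart among the NE tumors (SD 1.27) than among ADC (SD 0.18). Tfap2c fell by 2.53 ± 0.21, Tead2, a DNA-binding partner of YAP, by 3.58 ± 0.47, Gata2 by 1.38 ± 0.20 and Grhl2 by 1.35 ± 0.30, with adjusted p from 4.5e-05 to 0.0070. Of 17 ETS factors, the epithelial Elf5, Elf3 and Spdef were lower while Etv4 and Etv5 of the PEA3 group were higher. Elf5 was detected on no OPT-tm array (7.89, 7.99 and 8.23) and ran from 9.49 in mouse T30_6771 to 13.64 in mouse T30_6775 of T30, at least 9.43-fold lower. Basal Trp63 had the same order of T30 mice (10.56 in T30_6771, 11.01 in T30_6768, 12.99 in T30_6769 and 13.22 in T30_6775). The part of basal cells in the fall of Elf5 was not tested.

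Basic helix-loop-helix factors went both ways, with 11 of 45 higher and 8 lower. Id1 and Id3, inhibitors that bind E proteins, fell by 3.06 ± 0.24 and 1.78 ± 0.24. The E proteins themselves, Tcf4 and Tcf12, rose by 2.75 ± 0.32 and 1.41 ± 0.17 (adjusted p of all 4 between 3.4e-05 and 0.00060). Tcf4 was near the top of the scale in the NE tumors, at 15.996, 15.88 and 16.06, against 12.65, 13.93, 13.61 and 12.74 in T30. Notch target genes did not move as one: Hey1 rose (3.10 ± 0.45), Hes5 was at least 1.68-fold higher, and Hes1 fell by 1.44 ± 0.34. Hes6, an antagonist of Hes1, rose by 1.76 ± 0.35. Neurod4, a proneural factor, was at least 1.68-fold higher. Tcf21 and Twist2, of stromal cells, were at least 7.73-fold and 4.94-fold lower.

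**Figure D2:**
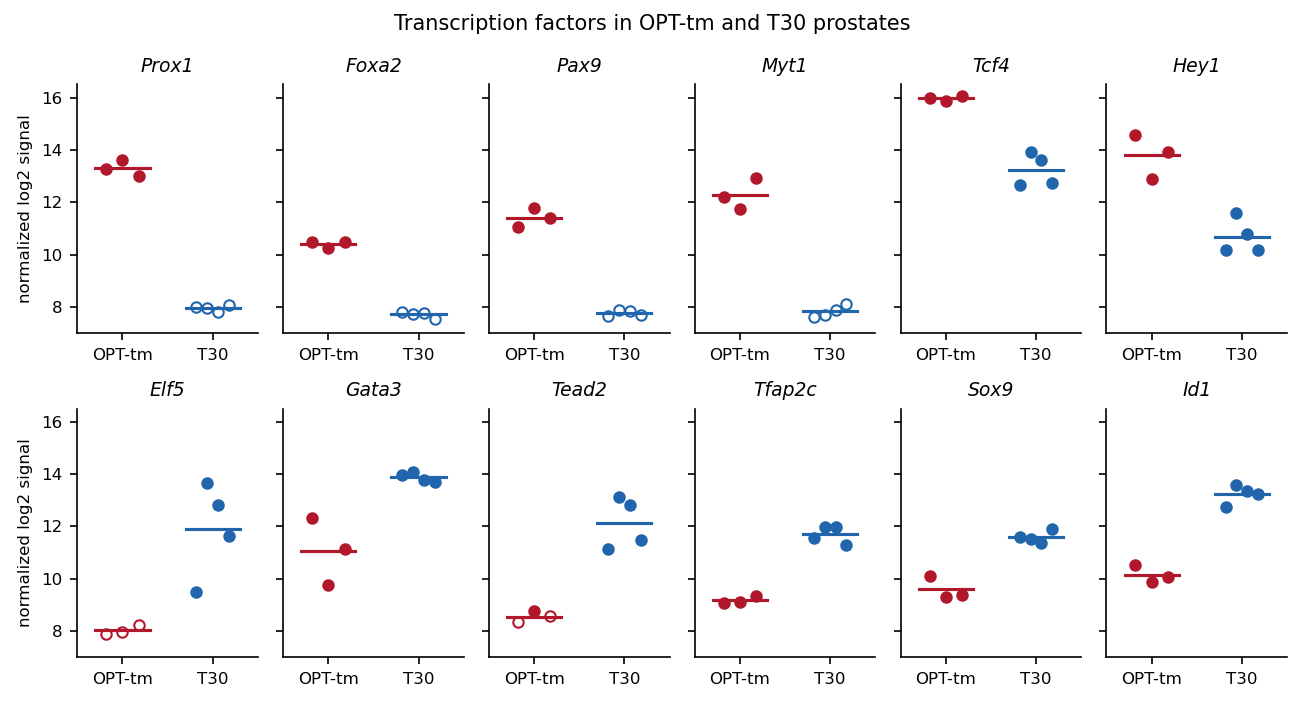
Normalized log2 signal of 12 transcription factors in OPT-tm (red, left, n = 3) and T30 (blue, right, n = 4), 1 point per mouse, open where the probe was not detected, with the group mean as a bar. Prox1, Foxa2, Pax9 and Myt1 were undetected in every T30 prostate, and the groups overlap in none of the 12 panels. The rule for naming changes asked for no overlap, which 24.3% of all genes showed upward and 24.5% downward.

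Hox genes, which keep the positional identity of a tissue, changed by cluster. Of 8 Hoxb genes tested 6 were lower and none higher, with a median log2 fold change of -1.67, whereas 2 of 7 Hoxa and 2 of 7 Hoxd genes were higher and none lower (medians 0.29 and 1.10), and limma called none of 4 Hoxc genes (0 at an unadjusted p under 0.05). A change in Hoxc could hardly be seen here: Hoxc4, Hoxc6 and Hoxc9 were detected on no array of either group, and Hoxc10 only on 2 T30 arrays. Hoxb7 was detected on no OPT-tm array, at 8.18, 8.41 and 8.03, and it stood at 9.94, 13.29, 12.57 and 10.98 in T30 (at least 8.24-fold lower, adjusted p = 0.0044). Hoxb2, Hoxb4, Hoxb5, Hoxb6 and Hoxb9 were also undetected in all OPT-tm prostates, at least 1.76-fold to 2.99-fold lower. All 6 were highest in mouse T30_6775 among T30, in which Trp63 and Lum peaked as well. Those markers moved with the Hoxb levels, and their part was not tested. Hoxb13, the prostate factor at the end of the cluster, was detected on 1 of 3 OPT-tm arrays and on no T30 array (8.38 to 8.53 in OPT-tm, 7.91 to 7.996 in T30).

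Hoxa5 had 11.92, 10.79 and 12.29 in OPT-tm, against 10.39, 9.23, 9.22 and 10.29 in T30 (1.89 ± 0.43, adjusted p = 0.0080), and Hoxa7 was like it (1.95 ± 0.46, adjusted p = 0.0094). Hoxd4 and Hoxd10 rose by 2.07 and 2.18 (adjusted p = 0.024 each). With mouse OPT18_1333, OPT18_1335 or T30_6768 left out, 2 Hox genes were called higher in place of 4. Hoxd4 lost its call when any NE mouse or T30_6768 was left out (adjusted p up to 0.074), and Hoxd10 without OPT18_1333, OPT18_1335, T30_6769 or T30_6768 and with the chip in the fit (adjusted p up to 0.093).

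**Figure D3:**
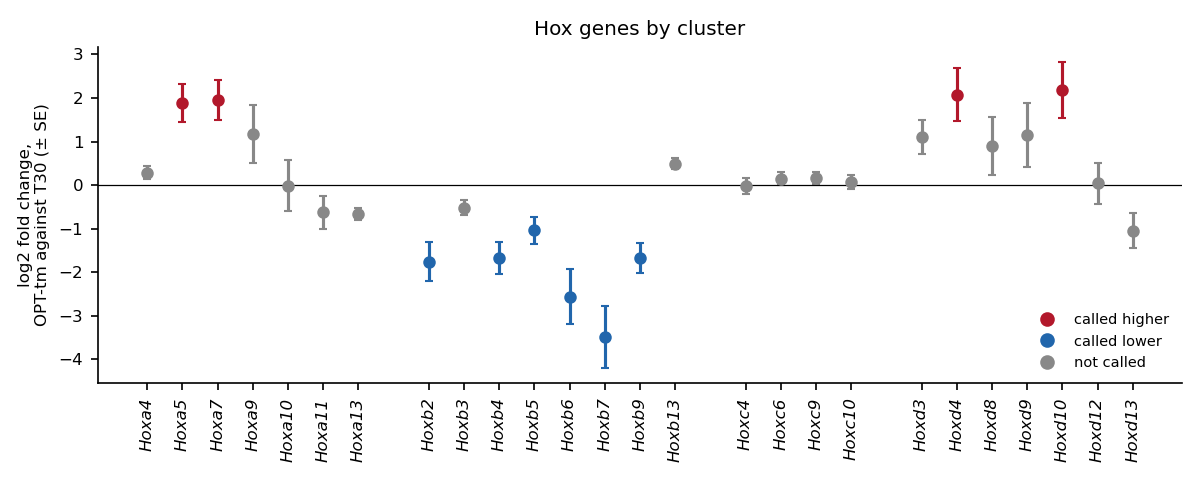
Log2 fold change of 26 Hox genes, OPT-tm against T30, by cluster and in order along each cluster, with standard errors. Called rises are red, called falls blue and genes not called grey. The 6 falls all lie in the Hoxb cluster, between -1.03 and -3.49, and the 4 rises in the Hoxa and Hoxd clusters, between 1.89 and 2.18.

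Of 9 genes of the EGF list, 3 were lower and none higher. Egfr, the receptor of epidermal growth factor, had 9.31, 9.45 and 8.96 in OPT-tm, against 11.98, 12.46, 12.27 and 11.94 in T30 (-2.92 ± 0.19, adjusted p = 1.3e-05). Its ligand Btc was at least 1.78-fold lower and Errfi1, which restrains the receptor, fell by 1.63 ± 0.19. Egf was not called, at 11.10 to 11.36 in OPT-tm and 8.64 to 13.33 in T30. Of 19 FGF genes, 4 were lower and 4 higher. Fgf1 and the stromal ligands Fgf7 and Fgf10 were lower (-2.62 ± 0.19 for Fgf1, at least 3.95-fold for Fgf7, -2.54 ± 0.66 for Fgf10), and so was their receptor Fgfr2, undetected in OPT-tm (at least 2.15-fold lower, adjusted p = 0.00038). Fgf10 lost its call without mouse OPT18_1340 (adjusted p = 0.053). The rises included Fgf13 and Fgf12, which stay inside the cell and bind sodium channels (2.90 ± 0.34, and at least 2.95-fold). Flrt3, a membrane partner of FGF receptors, also rose (2.71 ± 0.36). For Fgf12 the probe with the highest mean signal did not pass (adjusted p = 0.054).

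The MAP kinase list held targets and feedback genes of the cascade beside Ras-family genes such as Rras. Of its 27 genes 9 were higher and 4 lower, with a median of 0.60. Without mouse OPT18_1335, 6 were higher. The dual-specificity phosphatase Dusp6, which dephosphorylates ERK, had 15.12, 14.77 and 13.61 in OPT-tm, against 12.22, 13.41, 12.95 and 12.46 in T30 (1.74 ± 0.40, adjusted p = 0.0081). Dusp8, Dusp10 and Dusp16 rose by 1.83, 1.77 and 1.26, and Dusp4 by 2.07, although Dusp4 lost its call without mouse OPT18_1333, T30_6771 or T30_6768, with the chip in the fit and with no detection filter (adjusted p up to 0.13). Etv5 (11.03, 10.70 and 10.96 in OPT-tm, 8.36, 9.02, 8.47 and 8.49 in T30) and Etv4 rose by 2.31 ± 0.19 and 1.73 ± 0.25. The 4 that fell were Rras (-2.73 ± 0.18), Rras2, Phlda1 and Rasgrp1. Spry4 and Spred1, inhibitors of the same cascade, did not pass (0.85 ± 0.15 and -0.03 ± 0.26).

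Wnt genes fell in 11 of 42 cases and rose in 1. They covered ligands (Wnt7b -2.74 ± 0.26, Wnt4 -2.24 ± 0.28, and Wnt5a at least 3.80-fold lower), secreted modulators (Rspo3, Wif1 and Sfrp2), the receptor Fzd7 and the effector Tcf7l2 (-1.77 ± 0.20). Fzd10 was the rise, at 10.51, 12.10 and 9.46 in OPT-tm and 8.49 to 9.08 in T30 (adjusted p = 0.015). In the Hedgehog list Shh, the receptor-side Smo and the decoy Hhip were undetected in all OPT-tm prostates and lower by at least 1.454-fold, 1.91-fold and 1.44-fold, while Dhh rose by 1.44 ± 0.25. Ptch1, a target of the pathway, was detected in neither group. Shh lost its call without mouse OPT18_1333 or OPT18_1335 (adjusted p up to 0.061). Sgk1, a kinase downstream of PI3K and steroid receptors, was lower, at 13.31, 13.23 and 13.14 in OPT-tm, against 15.87, 15.98, 16.04 and 15.93 in T30 (-2.73 ± 0.13, adjusted p = 2.9e-06). The T30 levels lay near the ceiling of the scanner's scale, as did those of Clu and of Gstm2 on some arrays, so these differences may be understated.

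Of 105 genes of cyclic AMP, calcium and heterotrimeric G protein signaling 21 were higher and 12 lower, the falls near the share over all genes (12.5%). Pkia, an inhibitor of protein kinase A, had 13.71, 14.28 and 14.43 in OPT-tm, against 9.59, 9.80, 9.75 and 9.30 in T30 (4.53 ± 0.21, adjusted p = 2.7e-06). The kinase's regulatory subunits Prkar1a and Prkar1b rose by 1.32 ± 0.14 and 1.67 ± 0.27, the stimulatory G protein Gnas by 1.55 ± 0.31, and the adenylyl cyclases Adcy2 and Adcy1 were at least 6.91-fold and 2.04-fold higher. G protein parts of neurons rose, among them Gnao1 (2.31 ± 0.28), Gng4 (at least 5.69-fold) and Rgs9 (3.26 ± 0.20). On the phospholipase C side Plcb3, the inositol trisphosphate receptor Itpr3 and the Gq-class Gna14 fell by 2.25 ± 0.18, 2.07 ± 0.19 and 1.67 ± 0.45. G protein-coupled receptors had 16 of 89 higher and 12 lower, the falls again near the share over all genes. Cckbr, the receptor of gastrin and cholecystokinin, was at 12.13, 11.90 and 9.82 in OPT-tm and at 7.61 to 7.90 in T30 (at least 5.77-fold). Lpar4, of lysophosphatidic acid, rose by 2.86 ± 0.57 while Lpar6 and Lpar1 were lower (-2.43 ± 0.27, and at least 2.91-fold). Htr3a, counted in that list by its symbol, is a serotonin-gated channel and not a G protein-coupled receptor. It was at least 9.11-fold higher, and T18 prostates (8.06 to 9.52) lay above T30 (7.53 to 7.77).

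Inflammatory and lipid mediators were lower. Of 49 NF-kB and chemokine genes 17 fell and 1 rose. Cxcl12, the stromal ligand of CXCR4, had 9.52, 10.26 and 9.73 in OPT-tm, against 12.29, 13.04, 13.53 and 12.19 in T30 (-2.93 ± 0.35, adjusted p = 0.00027), and Cxcl14, Cxcl16 and the alarmin Il33 fell by 2.73, 2.32 and 2.24. The fibroblast and macrophage lists were lower in the same prostates, and their part was not tested. Of 30 eicosanoid and sphingolipid genes 11 fell and 1 rose. Hpgd, which inactivates prostaglandins, stood at 8.33, 8.88 and 8.66 in OPT-tm, against 12.47, 13.66, 13.16 and 12.72 in T30 (-4.38 ± 0.29, adjusted p = 1.3e-05). Prostaglandin E synthase Ptges, prostacyclin synthase Ptgis and the 12-lipoxygenase Alox12 fell by 2.82, 2.21 and 3.60. Outside this list, the prostaglandin importer Slco2a1 fell by 1.75 and the receptor Ptger3 was at least 1.69-fold lower. In the sphingolipid branch Sphk1 and the lipid phosphatase Plpp3 fell by 2.52 and 3.15, and Smpd3, the neutral sphingomyelinase, was the only rise: 11.62, 11.40 and 11.89 in OPT-tm, against 7.74, 7.70, 7.54 and 7.56 in T30 (at least 7.37-fold, adjusted p = 1.1e-06).

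In central metabolism isozymes went in opposite directions. In glycolysis 2 of 22 genes were higher and 2 lower, near the shares over all genes. Hexokinase 2, Hk2, fell to 11.37, 12.13 and 11.84 in OPT-tm, against 13.94, 13.67, 14.00 and 13.87 in T30 (-2.09 ± 0.20, adjusted p = 9.9e-05), while Hk1 was not called (0.74 ± 0.24). Of the phosphofructokinases, the muscle form Pfkm fell (10.07, 10.28 and 10.42 in OPT-tm, 11.87, 12.12, 11.95 and 11.65 in T30, -1.64 ± 0.17), the platelet form Pfkp rose (12.23, 12.82 and 12.19 in OPT-tm, 10.71, 11.26, 10.51 and 10.19 in T30, 1.75 ± 0.27) and the liver form Pfkl was not called (-0.56 ± 0.27). Other probes had log2 fold changes of -0.35 and -1.27 for Pfkm, 1.59 for Pfkp and 0.03 for Pfkl. The neuronal enolase Eno2 rose by 3.34 ± 0.26. The glucose transporter Slc2a1 fell by 2.13 ± 0.36, with 11.50, 10.89 and 10.59 in OPT-tm and 12.50 to 13.94 in T30. Gapdh, at 15.95 to 16.08 in OPT-tm and 15.15 to 15.48 in T30, had an adjusted p of 0.0038 but a change of only 1.67-fold, and Ldha did not pass (0.21 ± 0.36).

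Cholesterol synthesis had 5 of 18 genes higher and none lower (median 0.51): Hsd17b7 1.93 ± 0.18, Sqle 1.76 ± 0.17, Hmgcs1 1.48 ± 0.26, Fdps 1.30 ± 0.17 and Dhcr7 1.18 ± 0.20, with adjusted p between 8.9e-05 and 0.0022. Sqle, squalene epoxidase, had 14.15, 14.29 and 14.30 in OPT-tm, against 12.63, 12.30, 12.27 and 12.74 in T30. Insig1, a brake on the same pathway, did not reach 2-fold with the probe used (-0.78 ± 0.20). Its other probes went the opposite way, with log2 fold changes of 0.62 and 0.80. Fatty acid synthesis and desaturation had 5 of 25 higher and 1 lower, led by Acsl6, an acyl-CoA ligase of brain (at least 3.80-fold), the very long chain elongase Elovl4 (1.70 ± 0.29) and the desaturase Fads1 (1.47 ± 0.27). Fatty acid oxidation had 5 of 26 lower, led by Acadsb (-1.84 ± 0.16), and 1 higher, the coactivator Ppargc1a (1.54 ± 0.38). With array medians set equal only 2 oxidation genes were lower, and with the chip in the fit Ppargc1a missed the threshold (adjusted p = 0.0504).

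Detoxification genes fell without a rise. Of 46 glutathione and detoxification genes 16 fell and none rose (34.8%, median -0.73). The glutathione transferase Gstm2 had 12.38, 12.14 and 12.46 in OPT-tm, against 15.17, 16.08, 15.95 and 15.52 in T30 (-3.35 ± 0.24, adjusted p = 1.8e-05), Gsta4 fell by 3.27 ± 0.23 and Gstk1 fell by 2.97 ± 0.17. The microsomal epoxide hydrolase Ephx1, Gsto1, the ER-resident peroxidase Gpx8 and Gclm, a subunit of the enzyme that starts glutathione synthesis, fell by 1.63 to 2.92. Nfe2l2, the factor that drives many of these genes, fell by 1.13 ± 0.32 (adjusted p = 0.021), a call that was lost without mouse T30_6775 or OPT18_1335 and with array medians set equal (adjusted p up to 0.080). Of 19 retinoid genes 5 were lower and 2 higher. Aldh1a1, which makes retinoic acid, had 9.003, 9.40 and 8.89 in OPT-tm, against 12.23, 12.74, 12.22 and 12.002 in T30 (-3.20 ± 0.21, adjusted p = 1.4e-05), and Aldh1a7 fell by 2.08 ± 0.20. Crabp1, which binds retinoic acid in the cytosol, went the other way, at 12.46, 12.46 and 11.21 in OPT-tm and 7.67 to 8.43 in T30 (at least 9.75-fold). In T18 prostates Crabp1 lay at 9.84 to 11.37, which overlapped OPT-tm and was above T30.

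Amino acid and nucleotide genes gave smaller changes. Nucleotide synthesis had 4 of 23 genes higher and none lower, among them the deoxynucleotide enzymes Dut (1.66 ± 0.22), Dck (1.37 ± 0.22) and Tk1 (1.36 ± 0.19). In the serine pathway Phgdh, the entry enzyme, fell by 1.31 ± 0.16 (adjusted p = 0.00037), whereas Psat1, the next step, rose by 1.18 ± 0.32 with overlap between groups (adjusted p = 0.017), a call lost without mouse OPT18_1333 or OPT18_1335 and with the chip in the fit (adjusted p up to 0.086). Polyamine and arginine genes fell in 4 of 18 cases, Ass1, Arg2, Oat and Sat1, by 1.40 to 2.18. Zinc importers differed: Slc39a4 fell by 3.73 ± 0.29 (9.33, 9.50 and 8.79 in OPT-tm, 13.46, 12.42, 12.67 and 13.20 in T30) and Slc39a8 by 2.20 ± 0.27, while Slc39a6 rose by 1.62 ± 0.23. Slc30a10, a manganese exporter, was at least 3.002-fold higher.

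**Figure D4:**
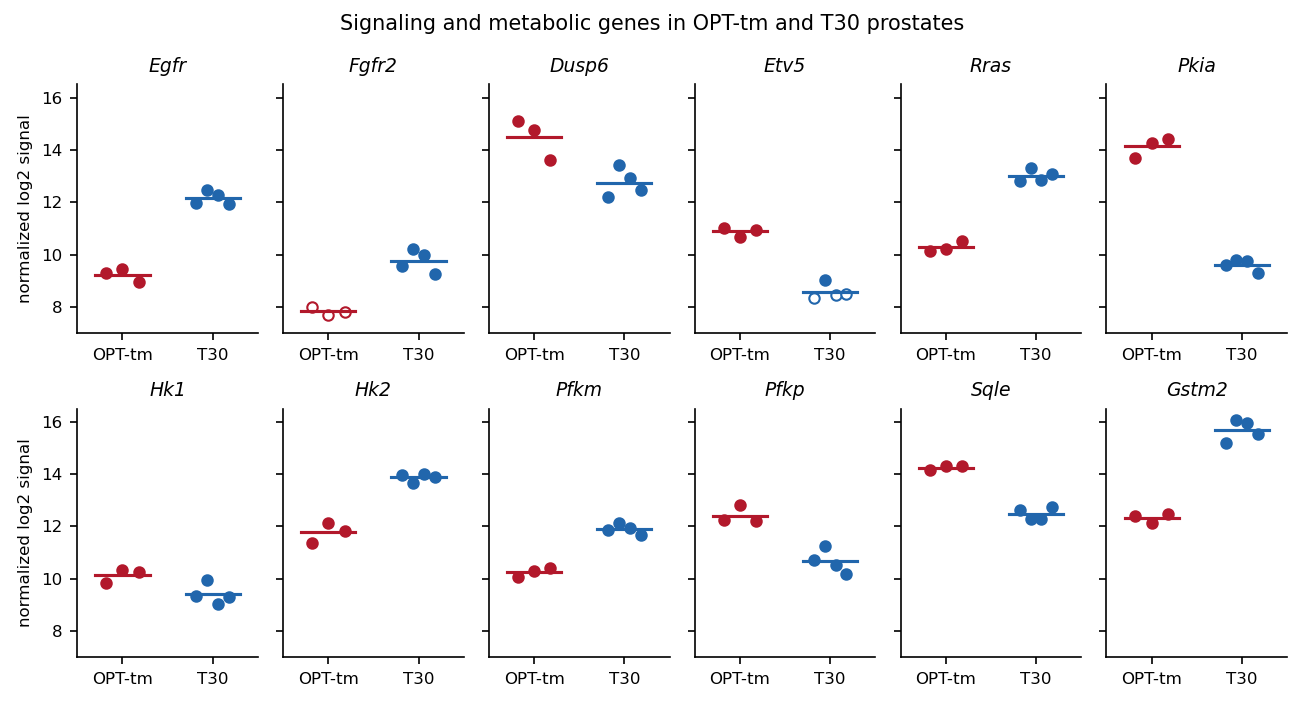
Normalized log2 signal of 6 signaling genes and 6 metabolic genes in OPT-tm (red, left, n = 3) and T30 (blue, right, n = 4), 1 point per mouse, open where not detected, bars at group means. Egfr and Fgfr2 are lower but Dusp6 and Etv5 higher in OPT-tm, and with the probes used Pfkm is lower while Pfkp is higher. Hk1 is the only gene shown whose groups overlap, and the rule for naming changes asked for no overlap.

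In secretion the NE tumors had more RNA of granule peptide genes and less RNA of some folding genes of the endoplasmic reticulum. Of 27 peptide hormone and granule genes 11 were higher and 1 lower (median 0.63). Scg3, a granin that anchors cargo in dense core granules, had 12.71, 13.06 and 13.09 in OPT-tm, against 7.64, 7.89, 8.01 and 7.87 in T30 (at least 18.4-fold, adjusted p = 3.7e-07), and Chgb and Chga were higher too (at least 9.01-fold, and 3.75 ± 0.29). Neuromedin U, Nmu, was at least 8.86-fold higher but uneven, at 12.86 and 13.04 in mice OPT18_1333 and OPT18_1340 and 9.81 in mouse OPT18_1335. Secretin (Sct, 2.61 ± 0.43), Nppa (at least 3.51-fold), Nxph1 (at least 4.71-fold) and the tachykinin gene Tac1 (at least 1.67-fold) were higher in all 3 NE tumors than in any ADC. Scg2 stood at 10.41 and 11.48 in mice OPT18_1333 and OPT18_1335 and at 7.69 in mouse OPT18_1340, and its call (adjusted p = 0.040) was lost in 9 of 16 alternative settings. Npy fell by 1.46 ± 0.36.

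Granin promoters are known for a cyclic AMP response element, TGACGTCA, which reads the same on both strands. In RefSeq promoters of GRCm38.p6, 300 bases that end 50 after the start site, it was present in 588 of 32851 (1.79%), and in 4 of the 24 list members with a promoter in the table: Chgb and Scg2, which were called higher, and Cartpt and Sst, which were not called. The promoters of the called pair are shown 5′ to 3′ with the element in capitals, at chr2:132781392-132781691 (plus strand) for Chgb and chr1:79439977-79440276 (minus strand) for Scg2. The element starts 72 and 68 bases before the start site.
Chgb: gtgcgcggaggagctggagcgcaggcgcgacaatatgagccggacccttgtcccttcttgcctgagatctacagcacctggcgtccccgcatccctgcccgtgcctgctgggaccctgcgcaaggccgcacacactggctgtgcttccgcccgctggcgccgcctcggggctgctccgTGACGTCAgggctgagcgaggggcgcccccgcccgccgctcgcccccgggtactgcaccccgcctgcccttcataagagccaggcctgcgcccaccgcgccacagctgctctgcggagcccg
Scg2: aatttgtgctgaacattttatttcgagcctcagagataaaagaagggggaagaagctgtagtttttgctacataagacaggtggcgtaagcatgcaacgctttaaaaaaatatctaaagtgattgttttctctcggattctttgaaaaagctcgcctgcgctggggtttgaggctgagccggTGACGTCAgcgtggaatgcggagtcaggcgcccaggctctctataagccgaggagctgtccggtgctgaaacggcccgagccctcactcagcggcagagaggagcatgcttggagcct

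Folding genes of the endoplasmic reticulum fell in 11 of 30 cases and rose in none (36.7%, median -0.89). Kdelr3, which retrieves chaperones from the Golgi, had 9.48, 9.42 and 8.65 in OPT-tm, against 11.47, 12.12, 11.72 and 11.60 in T30 (-2.55 ± 0.25, adjusted p = 0.00010). The disulfide isomerases Pdia5 and Pdia4 fell by 1.84 ± 0.17 and 1.59 ± 0.27, and the factors Creb3l4 and Creb3l2, which drive secretory capacity, by 1.69 ± 0.40 and 1.30 ± 0.19. The cochaperones Creld2 and Dnajc3 fell by 1.51 ± 0.26 and 1.47 ± 0.22. Hspa5, the chaperone BiP, fell by 1.12 ± 0.33 (adjusted p = 0.025), a call lost in 5 of 17 alternative settings, and Xbp1 did not reach 2-fold (-0.84 ± 0.25). In the translocon and COPII list 9 of 36 fell and 2 rose, but with array medians set equal only 4 fell. The rises were Sec23a (1.18 ± 0.28) and Sec61a2, the second translocon channel gene, at 12.92, 12.95 and 13.31 in OPT-tm, against 10.96, 11.07, 10.95 and 10.75 in T30 (2.12 ± 0.16, adjusted p = 2.7e-05).

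Many ER chaperone promoters hold an ER stress response element (CCAAT, 9 bases of any kind, then CCACG), the site of ATF6 with NF-Y. Searched on both strands, it was present in 39 of 32851 promoters of that length (0.119%) and in 8 of the 27 list members with one. Of these 8, Hspa5, Creld2 and Dnajc3 were called lower and 5 were not called. Hspa5 (chr2:34771840-34772139, plus strand, element from 65 bases before the start) and Creld2 (chr15:88819396-88819695, plus strand, element from 126 bases before, in reverse orientation) show it in capitals. Of the cholesterol genes above, Hmgcs1 (chr13:119690101-119690400, plus strand) held the sterol regulatory element TCACNCCAC from 137 bases before its start. On either strand, that element was in 1.24% of all promoters and in 1 of 15 cholesterol genes with a promoter in the table.
Hspa5: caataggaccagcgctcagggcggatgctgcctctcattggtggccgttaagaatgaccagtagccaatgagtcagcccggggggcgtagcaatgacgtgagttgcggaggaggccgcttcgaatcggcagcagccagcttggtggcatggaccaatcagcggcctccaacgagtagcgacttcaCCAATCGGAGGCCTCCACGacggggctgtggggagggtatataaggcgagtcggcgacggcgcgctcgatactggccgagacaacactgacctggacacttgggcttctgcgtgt
Creld2: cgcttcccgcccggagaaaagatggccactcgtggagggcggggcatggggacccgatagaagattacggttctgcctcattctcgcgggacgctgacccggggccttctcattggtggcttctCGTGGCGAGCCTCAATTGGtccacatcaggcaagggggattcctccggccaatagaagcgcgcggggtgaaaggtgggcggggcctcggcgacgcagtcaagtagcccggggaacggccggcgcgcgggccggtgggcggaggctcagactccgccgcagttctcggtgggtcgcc
Hmgcs1: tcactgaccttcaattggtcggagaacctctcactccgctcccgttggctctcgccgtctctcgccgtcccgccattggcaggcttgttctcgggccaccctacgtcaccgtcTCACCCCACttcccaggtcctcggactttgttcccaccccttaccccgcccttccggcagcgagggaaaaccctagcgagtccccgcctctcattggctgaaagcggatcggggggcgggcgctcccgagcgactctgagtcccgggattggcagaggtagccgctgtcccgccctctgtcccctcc

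Of 40 Wfdc, serpin, Spink and cystatin inhibitors 17 were lower and 1 higher, and of 30 kallikreins and serine proteases 9 were lower and 2 higher. The membrane protease cascade of epithelia, St14 (matriptase), Prss8 (prostasin) and Tmprss2, fell by 2.40 ± 0.29, 2.11 ± 0.17 and 2.94 ± 0.41, and its inhibitors Spint2 and Spint1 fell by 2.31 ± 0.21 and 1.70 ± 0.29. St14 had 8.71, 8.69 and 8.62 in OPT-tm, against 11.39, 10.21, 11.24 and 11.45 in T30. Proprotein convertase Furin and the plasminogen activator Plau fell by 1.63 ± 0.21 and 2.22 ± 0.55. Of 48 cathepsins, matrix proteases and ADAMs 11 were lower and 4 higher, and the 4 were 2 with array medians set equal or without any 1 of mice OPT18_1333, OPT18_1340, T30_6771, T30_6769 and T30_6768. The matrix proteases Mmp2, Mmp7 and Ctsk, fell by 2.67, 3.23 and 2.79, while the membrane-type Mmp24 was at least 5.39-fold higher (10.98, 11.13 and 11.45 in OPT-tm, 7.97 to 8.44 in T30). Complement and acute-phase genes fell in 10 of 23 cases with no rise. They held both complement parts (C2, -2.37 ± 0.27) and the inhibitors that guard host cells from it: Serping1 -3.31 ± 0.42, Clu -2.77 ± 0.31, Cd55 -2.74 ± 0.26 and Cd59a -2.48 ± 0.35.

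Glycosyltransferases went both ways, with 13 of 66 higher and 11 lower. Those that rose included sialyltransferases: St3gal6 had 14.10, 13.44 and 13.71 in OPT-tm, against 10.30, 12.06, 11.24 and 10.38 in T30 (2.75 ± 0.41, adjusted p = 0.00099), St8sia2, which polysialylates NCAM, rose by 1.82 ± 0.49, and St8sia5 and St8sia3 were at least 2.63-fold and 1.75-fold higher. Galnt9, a brain-type starter of mucin glycans, was at least 7.30-fold higher and the sulfotransferase Chst5 at least 4.54-fold. Those that fell build the outer chains of epithelial glycans: Fut2, the secretor fucosyltransferase, at 8.91, 8.60 and 8.26 in OPT-tm against 12.26, 11.55, 11.95 and 12.04 in T30 (-3.36 ± 0.22, adjusted p = 1.2e-05), B3gnt8 (-2.97 ± 0.60) and B3gnt3 (-1.9995 ± 0.43). St8sia2 was not detected in 3 of 4 T30 prostates, and Ncam1, its main carrier, was not called (0.78 ± 0.25, adjusted p = 0.032).

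At the cell surface, 24 of 49 antigens of prostate and neuroendocrine cancers were lower and 1, Uchl1, a ubiquitin hydrolase of the cytoplasm, was higher (51.0% called, median -1.22). Without mouse OPT18_1335 4 were higher, and without T30_6775 3. Nt5e (CD73), which makes adenosine, had 8.55, 9.25 and 8.59 in OPT-tm, against 13.004, 13.73, 13.33 and 12.94 in T30 (-4.45 ± 0.25, adjusted p = 6.1e-06). Dpp4 (CD26) fell by 3.12 ± 0.18, the tetraspanins Tspan8, Cd82 and Cd9 by 3.03, 2.38 and 1.92, Nectin2 by 2.47, Ly6e by 2.58, Cd44 by 1.60 and the metalloreductase Steap2 by 1.60. Of 39 tetraspanins and claudins 13 were lower and 3 higher. Cldn3, of tight junctions, had 10.01, 10.30 and 10.74 in OPT-tm, against 12.93, 14.00, 13.64 and 13.49 in T30 (-3.17 ± 0.27, adjusted p = 5.6e-05), Cldn4 was like it (-3.16 ± 0.26), and Cldn7 and the junctional F11r fell by 1.22 ± 0.24 and 2.67 ± 0.14. Psca, a luminal and urothelial antigen, was not called (-3.07 ± 1.24, adjusted p = 0.075). It was at 8.75 to 9.98 in OPT-tm and at 13.04 to 14.15 in T30 except for mouse T30_6775, at 8.56, and without that mouse it passed.

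Adhesion and guidance molecules of neurons were higher. Immunoglobulin-type adhesion genes were higher for 13 of 42 and lower for 4, and axon guidance genes higher for 12 of 51 and lower for 5. Efna5 was among the brightest, at 14.81, 15.26 and 15.39 in OPT-tm, against 11.61, 12.51, 12.09 and 11.38 in T30 (3.26 ± 0.28, adjusted p = 5.8e-05). Its receptors Epha5 and Epha7 were at least 2.69-fold and 2.52-fold higher, whereas Epha1 was at least 2.45-fold lower and Efna1 fell by 1.73 ± 0.20. Ligands and receptors of the ephrin system thus differed in both directions. Cntnap4 and Nrxn2, of the neurexin superfamily, were at least 8.21-fold and 5.15-fold higher, Nrcam at least 4.51-fold and Negr1 at least 3.65-fold. Robo1, the Slit receptor, rose by 1.88 ± 0.48, and Sema4a fell by 2.18 ± 0.32.

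Among 225 solute carriers 24 were higher and 33 lower, close to the shares over all genes, with values in both directions. Rises after Slc32a1 were Slc38a5, a glutamine and glycine transporter, at 15.01, 15.24 and 12.24 in OPT-tm against 8.69, 10.07, 10.52 and 10.16 in T30 (4.30 ± 0.73, adjusted p = 0.0019), the monoamine transporter Slc29a4 (at least 5.75-fold), the amino acid transporters Slc6a15 (at least 2.85-fold) and Slc7a3 (2.77 ± 0.26). The falls included the riboflavin transporter Slc52a3 (-3.57 ± 0.47) and the choline transporter-like Slc44a3 and Slc44a4 (-2.75 ± 0.14 and -2.28 ± 0.19). Of pumps, Atp12a, the non-gastric proton-potassium ATPase, had 7.79, 8.25 and 7.89 in OPT-tm, against 13.24, 11.81, 12.43 and 11.67 in T30 (at least 12.4-fold lower, adjusted p = 4.7e-05). The sterol exporters Abcg5 and Abcg8 were at least 6.28-fold and 2.98-fold lower, and Atp2b2, a calcium pump of neurons, at least 2.42-fold higher. Abcg8 was called in 10 of 17 alternative settings, and leaving out mouse OPT18_1333 reduced the number of falls in the pump and ABC list to 6, against 10 with all mice.

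The NE tumors were not uniform. Among the genes detected on all 3 arrays, the widest ranges were those of Mdk, Neurl1a, Hba-a1, Bcas1 and Corin. The growth factor midkine, Mdk, was high in mice OPT18_1333 and OPT18_1335 (14.92 and 14.57) and low in mouse OPT18_1340 (9.39), and T30 spanned 11.87 to 14.81. Neurl1a, Bcas1 and Corin had the same pattern, each lowest in mouse OPT18_1340 (10.70, 9.82 and 10.09) and between 12.72 and 14.88 in the other NE tumors. Hba-a1, hemoglobin of red cells, ran from 11.76 to 16.02. Among T30 the widest ranges, after seminal vesicle genes, were those of the luminal Tgm4 and Psca. Tgm4, the prostate transglutaminase, was at 16.07, 13.69 and 14.69 in mice T30_6771, T30_6769 and T30_6768 but at 8.51 in mouse T30_6775, within the OPT-tm range of 8.05 to 8.59.

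Against the T18 prostates, most of the differences lay on the NE side. Of the 1242 genes higher in OPT-tm, 1024 (82.4%) had all OPT-tm levels above the T18 range while T30 overlapped it, against 22.7% over all genes. Of the 1351 lower genes, 1036 (76.7%) had OPT-tm below the T18 range with T30 overlapping, also against 22.7% over all genes. In 80 of the higher and 84 of the lower genes the tumors lay on opposite sides of T18. These positions are descriptions, since the genes were chosen by OPT-tm and T30. Fgf10, at 10.82 to 11.49 in T18, was above that range in the T30 prostates of mice T30_6775 and T30_6769 (13.28 and 12.99). Igf1, a stromal growth factor, was likewise above its T18 range of 9.41 to 10.06 in these mice (12.002 and 11.97).

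The OPT18 and T18 prostates, both without palpable tumor and unlike in genotype and strain label, differed in 3 genes by the same rule, 0.0279% of those tested (1 higher, 0.00929%, and 2 lower, 0.0186%), and all 3 were called in the same direction between OPT-tm and T30. The OPT18 group was uneven, with Amer2 from 8.13 to 12.35, and T18 had only 4 arrays. Uneven or smaller differences between the genotypes could thus have been missed. Stbd1, a glycogen-binding protein, had 9.19, 8.52 and 8.71 in OPT-tm, against 11.86, 11.09, 11.24 and 11.93 in T30 (-2.72 ± 0.26), and 9.70 to 10.48 in OPT18, against 11.02 to 11.38 in T18 (adjusted p = 4.4e-06). Ccng2, a cyclin of resting cells, had 10.16, 9.53 and 9.45 in OPT-tm, against 11.61, 11.96, 11.14 and 11.46 in T30 (-1.83 ± 0.25), and 8.65 to 10.04 in OPT18, against 11.09 to 11.74 in T18. Atp10d, a lipid-flippase gene that RefSeq lists as a transcribed pseudogene in the reference strain, rose by 1.11 ± 0.27 between the tumors and by 1.26 between OPT18 and T18. In all 3 genes every OPN-/-TRAMP prostate, OPT15 included, lay on the same side of every TRAMP prostate. All 3 lie on chromosome 5, as does Spp1.

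**Figure D5:**
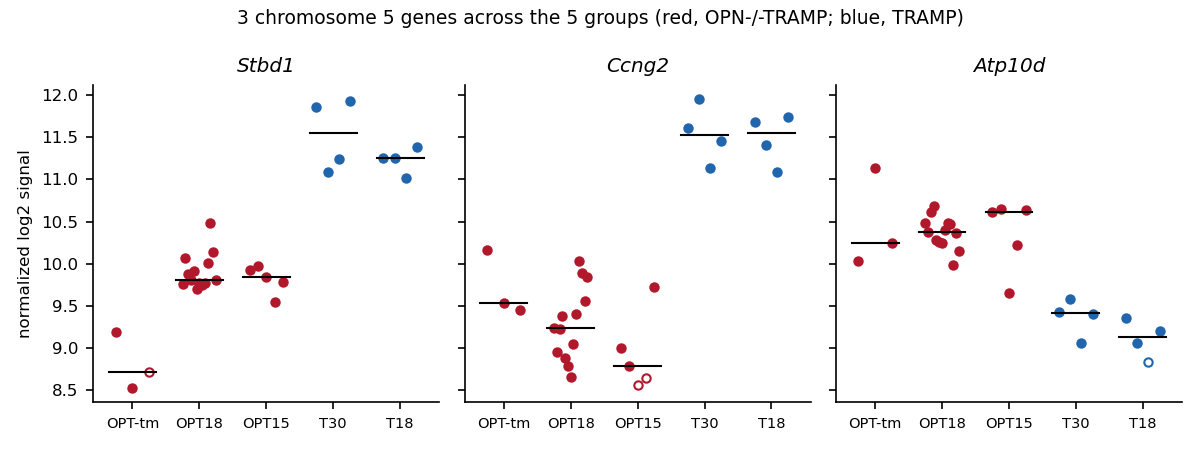
Normalized log2 signal of Stbd1, Ccng2 and Atp10d in all 29 prostates by group, 1 point per mouse, open where not detected, with bars at group medians. The OPN-/-TRAMP groups (red: OPT-tm, OPT18, OPT15) and the TRAMP groups (blue: T30, T18) do not overlap for any of the 3 genes, with or without a palpable tumor.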

How the data were processed

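Prostate RNA of 29 mice was hybridised to single-colour Illumina mouse bead arrays on 4 chips, 1 array per mouse. The authors deposited unnormalized probe intensity values exported from the scanner software, with a detection p-value for each probe and array. A further deposited table holds log2 values that the authors had normalized by robust splines in lumi, whose version the labels and methods do not give, and it served as an alternative. Since the spline method was not installed, the log2 intensities of all 29 arrays were brought to common quantiles by limma (3.58.1, under R 4.3.3). Of 25697 probes, 23978 had a gene symbol and 1719 had none. Probes with a detection p under 0.01 on at least 1 array were kept, and each gene was read from the probe with the most detections, leaving 10768 genes. No named probe measured Spp1, and its transcript was therefore not examined.

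OPT-tm and T30 were compared by lmFit and eBayes, on their 7 arrays alone, and OPT18 and T18 likewise, with Benjamini-Hochberg adjustment over all genes (adjusted p under 0.05, at least 2-fold). The p-values measure the spread between these mice. The number of arrays limits the precision. The fit was tested on simulated data. The genes to name were the largest changes among all genes, the largest changes in each list and its brightest members not called, up to 2 called members of each marker list, and the genes of widest range within a group. The largest changes and the called marker members had to show no overlap between groups. Those among all genes also had to be detected on every array of the brighter group. Of the 278 genes named, 172 came by this rule and 106 were added as partners of those or after their values were seen. The members and lists were chosen with earlier results of these data known. Alternatives covered normalization, background correction, scaling, filters, probe choice, samples in the fit, chip, prior variance, fold threshold and each mouse left out. Promoters came from RefSeq (GRCm38.p6). Figures were drawn with Python 3.11.15, pandas 2.3.3 and matplotlib 3.10.9.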

Additional observations from a re-analysis of the deposited data

Results flagged for a closer look

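In 10 of 278 named genes (3.6%), 1 of the 4 T30 prostates stood apart from the other 3 by Dixon's ratio, which chance alone gives in about 1 in 20 groups. The 3 OPT-tm prostates were too few for this test. Mouse T30_6775 was lowest for Msmb (8.135, next 15.5), Slc39a8 (10.88, next 11.8), St14 (10.21, next 11.24) and Clu (15.86, next 16.09), and highest for Spint2 (11.06, next 10.64). Mouse T30_6771 was lowest for Svs2 (8.476, next 15.88) and highest for Creld2 (13.63, next 12.71) and Slc44a3 (12.49, next 12.27). Mouse T30_6769 was lowest for Onecut2 (7.543, next 7.732), which was detected on no T30 array, and highest for Prkar1a (14.12, next 14.03).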

How the results depend on the processing

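Under the alternatives that kept the fold threshold, the number of genes higher in OPT-tm than in T30 ranged over 1198 to 1662 and of those lower over 1089 to 1804, with the high ends from neqc background correction. With no fold threshold, 2305 were higher and 2337 lower, and between OPT18 and T18 2 genes were higher and 3 lower. With each mouse left out in turn, 1199 to 1276 were higher and 1210 to 1410 lower. With array medians set equal, 1432 were higher and 1089 lower. With the chip in the fit, 1198 were higher and 1303 lower. Of 260 named genes that were called, 231 kept their call under every alternative run, 29 lost it under at least 1 and none changed direction. The called genes had 101 other probes, of which 26 changed by under 2-fold and 2 had the opposite sign. Among the 26 were probes for Pfkm (-0.35), Tk1 (0.58), Nectin2 (-0.62), Tcf7l2 (-0.83) and Fgf10 (-0.90).

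Tgm4 lost its call in 8 settings (adjusted p up to 0.077), Hoxb5 in 6 (up to 0.083), and Svs2, Igf1 and Corin in 5 each (up to 0.061, 0.089 and 0.10). Leaving out mouse OPT18_1335 alone ended the calls of Btc, Gna14 and Dusp16, leaving out OPT18_1333 those of Lpar1 and Slco2a1, and leaving out OPT18_1340 those of Lpar1 and Atp10d. Sox21 lost its call without T30_6771, T30_6769 or T30_6768, and Sec23a without T30_6768. With the chip in the fit Hes1 and St8sia2 were also lost, and with array medians set equal Sat1 and Creld2. With array medians set equal, 3 macrophage and antigen presentation genes were lower in place of 6. Of 120 counts over gene lists, 81 stayed within 1.5 times under every alternative run.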
